A study of Mus musculus with 6 samples.

Results

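A set of 10 heat shock and chaperone genes was followed in mouse epidermal cells: Hspa1a, Hspa1b, Hsp90aa1, Hsph1, Dnajb1 and Hspb1, grouped here as inducible, and Hspa8, Hsp90ab1, Hspd1 and Hspe1, grouped as constitutive. They were taken by gene name from the deposited read counts, in which each name had 1 row, so 10 of 54532 genes were members. The 6 libraries were made from dorsal skin epidermis of C57BL/6 mice aged 4 weeks, of both sexes, dissociated with enzymes. In the 3 NCAM-enriched libraries, the cells had been bound by magnetic beads against PSA-NCAM, a surface form of the neural cell adhesion molecule that marks Merkel cells, and were then sorted as NCAM-positive and DAPI-negative. In the 3 bulk skin libraries, cells were sorted only as DAPI-negative, that is, not stained by a dye that enters dead cells, so they can include Merkel cells. Each library came from 500 sorted events and was prepared by Smart-seq2, which amplifies full-length cDNA. Nothing in the labels or methods says that replicates came from separate animals, so p-values measure only the spread between these libraries.

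Heat shock proteins bind unfolded proteins and help them to fold, to stay soluble or to be degraded. Under heat or other protein damage, the transcription factor HSF1 binds repeats of the unit GAA and its complement TTC in their promoters, and the inducible genes are then transcribed strongly, while constitutive relatives of the same families serve unstressed cells. Dissociating a tissue with enzymes can itself induce stress genes, and in the epidermis Hspb1, also called HSP25, accompanies the differentiation of keratinocytes, the main cell type of this layer.

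The promoters of the inducible HSP70 genes and of 2 other members are shown because they carry these repeats. RefSeq promoters on GRCm38.p6, running from 250 bases before to 50 after a transcript start, were available for 7 of the 10 members. Hspa8, Hsp90aa1 and Hsp90ab1 had no entry. The motifs searched were GAANNTTC and TTCNNGAA, each of which reads the same on both strands. At least 1 of them was found for 6 of the 7 members, where a match in any promoter of a gene counted. Hsph1, Dnajb1 and Hspd1 had 2 promoters each. The share of 15.1% over all 32851 promoters of this length counts single promoters, so the units differ. Dnajb1 held none. The overlapping triples GAANNTTCNNGAA or TTCNNGAANNTTC were found in Hsph1, Hspd1 and Hspe1 and in 0.603% of all promoters. Of these genes only Hsph1 was grouped as inducible, so the grouping does not follow this motif. In the stretches below, capitals mark the GAA and TTC units of a match, and the first 3 begin 130 bases before the start.
Hspa1a (chr17:34972227-34972286, minus strand): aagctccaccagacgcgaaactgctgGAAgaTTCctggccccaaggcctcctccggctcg
Hspa1b (chr17:34959309-34959368, minus strand): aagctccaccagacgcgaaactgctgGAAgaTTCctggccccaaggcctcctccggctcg
Hspb1 (chr5:135887789-135887848, plus strand): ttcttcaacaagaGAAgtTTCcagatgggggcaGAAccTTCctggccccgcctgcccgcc
Hspe1 (chr1:55088056-55088085, plus strand): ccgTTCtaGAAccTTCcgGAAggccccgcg
The Hspa1a and Hspa1b stretches were the same letters, and their whole promoters were equal at 296 of 300 bases. Hspb1 held 2 matches, 117 and 97 bases before its start. The Hspe1 stretch lay before the Hspe1 start and inside the annotated span of Hspd1, which is transcribed the other way, and its matches were also counted for an Hspd1 promoter, from 144 bases before that start. A match is a description of the letters and was not tested as a binding site.

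The coding starts of the HSP70 members are shown because reads of 50 bases have to tell these genes apart. The first 60 coding bases were read from GENCODE M21 transcripts (GRCm38), and capitals mark the bases that differ from Hspa1a.
Hspa1a (chr17:34971866-34971925, minus strand): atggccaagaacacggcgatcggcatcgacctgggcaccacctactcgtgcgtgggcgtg
Hspa1b (chr17:34958948-34959007, minus strand): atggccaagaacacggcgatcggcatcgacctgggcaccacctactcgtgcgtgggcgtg
Hspa8 (chr9:40801923-40801982, plus strand): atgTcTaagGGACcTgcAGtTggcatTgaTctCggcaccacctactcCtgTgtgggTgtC
Hspa1b differed from Hspa1a at 0 of these bases and Hspa8 at 17. Over whole transcripts, 1716 of the 2918 windows of 50 bases in Hspa1a also occurred in Hspa1b. A read from such a window cannot be assigned by its sequence, so the split between Hspa1a and Hspa1b is uncertain and their sum is given beside them.

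Library totals ran from 1343190 to 4481830 counts, and 1 count was worth 0.216 to 0.773 normalised CPM, the count scaled by TMM-adjusted library size (CPM). The 9 Merkel cell markers were all above bulk skin in every NCAM-enriched library, and 5 were called by edgeR at an adjusted p of at most 0.05. They summed to 1529, 1602 and 451 CPM in NCAM-enriched libraries 1, 2 and 3, against 132 to 176 in bulk skin. Markers of other cells moved as well, and their part in the results below was not tested. Suprabasal keratinocyte markers (10 genes, 7 called) summed to 14320 to 37220 CPM against 1567 to 1753 in bulk skin, where Flg was at 0. T and NK cell markers (7 of 7 called) summed to 3.86 to 44.6 CPM against 3512 to 3744, with Cd3d at 0 in all NCAM-enriched libraries. Langerhans and myeloid cell markers (5 of 7 called) summed to 27.8 to 372 CPM against 11830 to 19470, and red blood cell markers (4 of 4 tested) to 3.09 to 23.9 against 747 to 1176. Fibroblast markers (0 of 6 called) summed to 33000 CPM in NCAM-enriched library 2, 41.7 and 363 in the others and 10360 to 18200 in bulk skin. Basal keratinocyte markers (0 of 6 called) summed to 7129 to 30790 CPM against 11850 to 16280, and muscle markers (1 of 2 tested called) to 12.2 to 281 against 7.40 to 13.7.

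NCAM-enriched libraries 1 and 2 stood apart in 2 ways. Processed pseudogenes, which are copies of genes without introns, took 2.05% and 3.06% of their counts, and 0.135% to 0.195% in the other 4 libraries. Mitochondrially encoded genes took 0.896% and 1.97% of their counts, and 0.140% to 0.314% elsewhere. The fold change of each member is therefore also given without both, a fit in which library 3 stands alone against bulk skin and is assumed to vary like the others. Library 3 differed too: among NCAM-enriched libraries it had the lowest sum of Merkel cell markers (451 CPM) and the highest of basal keratinocyte markers (30790 CPM).

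The 10 members together took a larger share of the counts in NCAM-enriched cells, 0.485%, 0.502% and 0.493% against 0.259%, 0.285% and 0.206% in bulk skin. None of the 10 was called by edgeR over all 13157 genes tested, in either direction. At an unadjusted p under 0.05, Hspa1a, Hspb1 and Hsp90ab1 were higher and Hspa8 and Hspe1 lower, and DESeq2 called 3 higher (Hspa1a, Hspb1, Hsp90ab1) and 1 lower (Hspa8). Over all genes, edgeR called 1.04% higher and 1.55% lower, DESeq2 5.06% and 7.1%, and an unadjusted p under 0.05 was reached by 8.73% and 10.2%. Values of the groups did not overlap for 4 members with NCAM-enriched higher and for 2 with it lower, against 11.1% and 19.3% of all genes. The median log2 fold change was 0.50 over the members and -0.07 over all genes. In libraries of pooled cells, more cells of a type and more RNA per cell cannot be told apart.

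**Figure D1:**
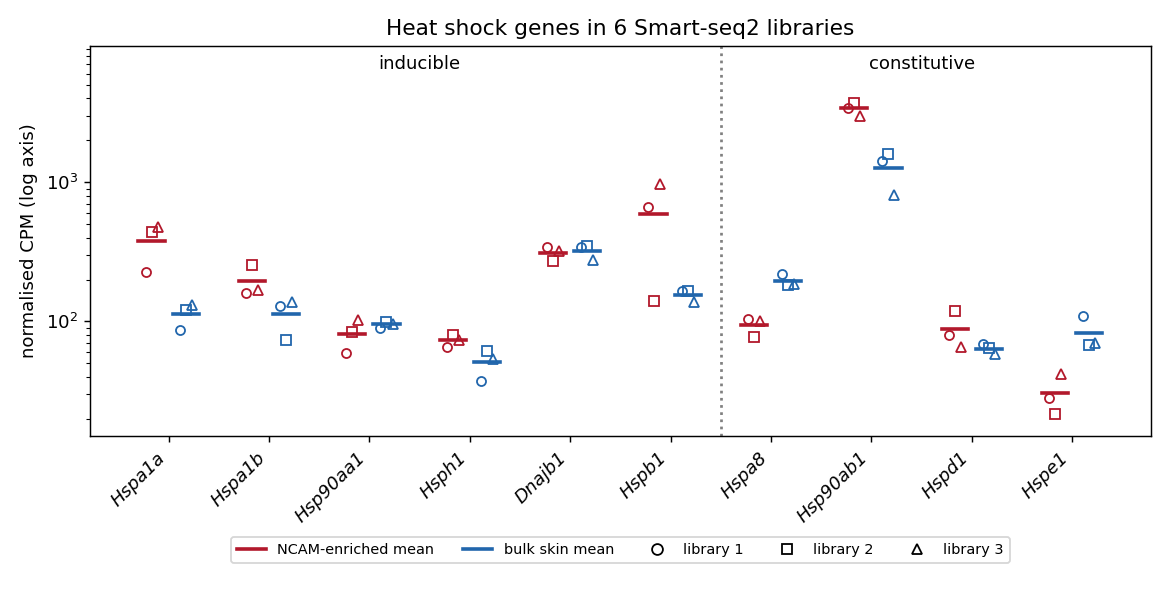
Normalised CPM (log axis) of each member in the 3 NCAM-enriched (red) and 3 bulk skin (blue) libraries, with open symbols for libraries 1 to 3 and bars for group means; the dotted line divides inducible from constitutive members. Hspa1a, Hspa1b, Hsph1 and Hsp90ab1 are higher in every NCAM-enriched library than in any bulk skin library, Hspa8 and Hspe1 are lower, and Hspb1 spans 140 to 966 CPM within the NCAM-enriched group.

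The HSP70 members had fitted values on opposite sides of 0, above it for the inducible genes and below it for the constitutive gene. Hspa1a and Hspa1b encode the stress-induced cytosolic HSP70, a chaperone driven by ATP, from neighbouring genes with 1 exon each (chromosome 17, 34969190 to 34972156 and 34956436 to 34959238, minus strand, GRCm38). Hspa1a had 226, 435 and 480 CPM in NCAM-enriched libraries 1, 2 and 3, and the bulk skin libraries had 86.9, 122 and 131. The lowest NCAM-enriched library was above the highest bulk skin library. The means were 380 ± 136 and 113 ± 23.2 CPM (SD, n = 3 each), with a log2 fold change of 1.75 ± 0.41 (SE) that missed the edgeR threshold (adjusted p = 0.0608). It passed in 5 of 16 alternatives, among them the fit with library 3 alone, which has no replicate in its group. In the other alternatives the adjusted p ran from 0.00277 (DESeq2) to 0.285. Without NCAM-enriched library 2 edgeR gave 1.63 (adjusted p = 0.0454). With libraries 1 and 2 both left out the value was 2.08.

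Hspa1b had 159, 254 and 167 CPM in the NCAM-enriched libraries against 130, 73.1 and 137. The groups did not overlap, but the gap between the nearest libraries was small beside the spread within each group. Its log2 fold change was 0.77 ± 0.40 (adjusted p = 0.342), and it was called in 0 of the 16 alternatives, the fit without libraries 1 and 2 giving 0.57. The sum of both genes was 385, 689 and 647 CPM against 217, 195 and 268, also without overlap. Fitted as 1 gene it gave a log2 fold change of 1.34 (adjusted p = 0.0879). That fit stands for each of these genes in the alternatives that sum copies. The share of Hspa1a in that sum varied in both groups: the log2 ratio of Hspa1a to Hspa1b was 0.50, 0.78 and 1.52 in the NCAM-enriched libraries and -0.58, 0.73 and -0.06 in bulk skin. In addition, 19.0% of the exonic bases of Hspa1a lie in exons of Gm20481, which had 0 counts in every library.

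Hspa8 encodes HSC70, the constitutive HSP70 of the cytosol (chromosome 9, 40800984 to 40810087, plus strand). It had 104, 77.3 and 101 CPM in NCAM-enriched cells and 220, 183 and 185 in bulk skin. Every NCAM-enriched library was below every bulk skin library, with a mean 2.09-fold higher in bulk skin (94.1 ± 14.6 against 196 ± 21.0 CPM). The log2 fold change of -1.06 ± 0.34 was not called by edgeR (adjusted p = 0.128) but was by DESeq2 (0.0432), and by none of the other 15 alternatives. Without NCAM-enriched libraries 1 and 2 it was -0.96. The small nucleolar RNA genes Snord14c, Snord14d and Snord14e overlap 6.09% of its annotated exonic bases. Its 10 non-coding copies held 27.0%, 59% and 2.5% of its own counts in NCAM-enriched libraries, and 1.77% to 3.11% in bulk skin. With these copies added, a choice made after seeing the data, edgeR gave a log2 fold change of -0.75 (adjusted p = 0.264).

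The balance of inducible to constitutive HSP70 restates the values above and is not a further result. Both inducible genes were higher and Hspa8 was lower, each without overlap, so their ratio had to separate the groups. The ratio of Hspa1a plus Hspa1b to Hspa8 was 3.70, 8.92 and 6.43 in NCAM-enriched libraries and 0.983, 1.06 and 1.45 in bulk skin. On the log2 scale the means were 2.58 ± 0.64 and 0.20 ± 0.30. This ratio needs no scaling between libraries. With the counts of the Hspa8 copies added to Hspa8 it was 2.91, 5.61 and 6.27 against 0.964, 1.04 and 1.40, still without overlap.

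Both cytosolic HSP90 members serve kinases and steroid receptors as clients. Hsp90ab1, the constitutive gene (chromosome 17, 45567775 to 45573271, minus strand), was the most abundant member in every library. It had 3415, 3728 and 2991 CPM in NCAM-enriched libraries against 1427, 1582 and 811. There was no overlap, and the mean was 2.65-fold higher in NCAM-enriched cells (3378 ± 370 against 1273 ± 408 CPM). Its log2 fold change was 1.41 ± 0.45, not called by edgeR (adjusted p = 0.129) and called by DESeq2 (0.00718) and limma-voom (0.0171). Only 4.49% of its windows occurred in other genes, and leaving out single libraries gave log2 fold changes of 1.10 to 1.53, all uncalled. Without both NCAM-enriched libraries 1 and 2 it was 1.23. It was also the member of which bulk skin libraries differed most from each other in absolute level, since library 3 had 811 CPM.

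Hsp90aa1, the inducible gene (chromosome 12, 110690605 to 110702728, minus strand), had 59.0, 83.4 and 102 CPM in NCAM-enriched libraries against 90.4, 98.8 and 96.5. The groups overlapped, with a log2 fold change of -0.22 ± 0.39 (adjusted p = 0.820). Its value depended on which copies were counted with it. The fit that added rows named as copies stayed at -0.22. It could not add the pseudogenes described next, whose names differ, so this value says nothing about them. The 3 annotated pseudogenes that share windows with it held 79, 163 and 27 counts in NCAM-enriched libraries, or 71.2%, 151% and 7.52% of its own counts, and 3, 8 and 13 in bulk skin. With the counts of these 3 added to the gene, a choice made after seeing the data, the log2 fold change was 0.52 (adjusted p = 0.549). With NCAM-enriched libraries 1 and 2 left out it was 0.10, so that no direction can be given.

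The ratio of Hsp90ab1 to Hsp90aa1 in CPM was 57.9, 44.7 and 29.4 in NCAM-enriched libraries and 15.8, 16.01 and 8.41 in bulk skin. The constitutive gene thus exceeded the inducible gene in all 6 libraries. The groups did not overlap, with log2 ratios of Hsp90aa1 over Hsp90ab1 of -5.40 ± 0.49 and -3.69 ± 0.53. With the counts of the copies added to Hsp90aa1 the ratios were 33.8, 17.8 and 27.3 against 15.6, 15.7 and 8.11, still apart but with library 2 close to bulk skin. By these ratios the inducible share of this family was smaller in NCAM-enriched libraries, the opposite order to that of the HSP70 genes. No direction could be given for Hsp90aa1 itself, and edgeR called neither gene.

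**Figure D2:**
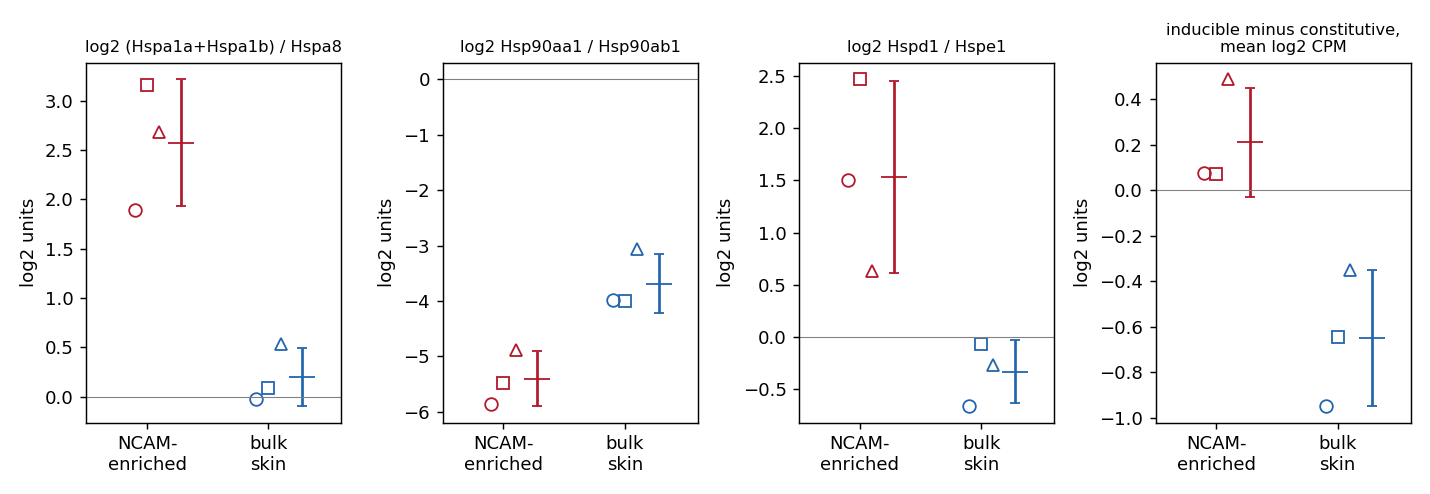
Log2 ratios of related members in each library (open symbols, libraries 1 to 3) with group mean and SD beside them, for NCAM-enriched (red) and bulk skin (blue) libraries. The groups do not overlap in any of the 4 panels: Hspa1a plus Hspa1b over Hspa8 and Hspd1 over Hspe1 are higher in NCAM-enriched cells, Hsp90aa1 over Hsp90ab1 is lower, and the difference of mean log2 CPM is 0.07 to 0.49 against -0.95 to -0.35.

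Hspb1 encodes the small heat shock protein HSP25, which holds unfolded proteins without using ATP (chromosome 5, 135887919 to 135889563, plus strand). It had 664, 140 and 966 CPM in the NCAM-enriched libraries, in their order, against 167, 164 and 137. Libraries 1 and 3 were far above bulk skin and library 2 lay within it, so the NCAM-enriched SD was 418 around a mean of 590 CPM, against 156 ± 16.5. The log2 fold change of 1.92 ± 0.62 was the largest of the 10 and was not called (adjusted p = 0.131). It was called by DESeq2 (0.0316), with all genes of at least 1 count and without NCAM-enriched library 2 (2.37, adjusted p = 0.00558). With libraries 1 and 2 left out the value was 2.63. Library 2 was also the library with the lowest sum of suprabasal markers among NCAM-enriched libraries, 14320 CPM against 37220 and 19260, and the one with high fibroblast markers, and their part in its Hspb1 level was not tested. Of the windows of Hspb1, 51.6% occur in the pseudogene Hsp25-ps1, which held 56 counts over all NCAM-enriched libraries and 12 over all bulk skin libraries.

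Neither of the co-chaperone members was called. Dnajb1 encodes HSP40, a J protein that hands substrates to HSP70 and stimulates its ATPase (chromosome 8, 83608193 to 83612653, plus strand). It had 340, 272 and 322 CPM in NCAM-enriched libraries against 340, 348 and 276, which overlap almost completely, with a log2 fold change of -0.05 ± 0.32 (adjusted p = 0.962). Its sign changed without NCAM-enriched library 2 (0.03), and without libraries 1 and 2 the value was 0.00117. Hsph1 encodes HSP110, which exchanges the nucleotide of HSP70 (chromosome 5, 149614287 to 149636376, minus strand), and had 65.9, 80.4 and 73.8 CPM against 37.6, 61.0 and 53.7. These values did not overlap, but the log2 fold change of 0.53 ± 0.43 was not called by edgeR (adjusted p = 0.571) or in any alternative. Without libraries 1 and 2 it was 0.54. These are also the members with the fewest shared windows, 0.441% for Dnajb1 and 0 for Hsph1.

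Hspd1 and Hspe1 encode HSP60 and HSP10, the barrel and the lid of the mitochondrial chaperonin, and lie head to head (chromosome 1, 55077835 to 55088243 on the minus strand and 55088132 to 55091307 on the plus strand). Hspd1 had 79.7, 120 and 65.5 CPM in NCAM-enriched libraries against 68.6, 64.4 and 58.1. Library 3 lay inside the bulk skin range and library 2 stood highest, and the log2 fold change was 0.47 ± 0.41 (adjusted p = 0.611). Hspe1 had 28.2, 21.6 and 42.3 CPM against 109, 67.4 and 69.9, with no overlap. Its mean was 2.67-fold higher in bulk skin, and its log2 fold change of -1.41 ± 0.49 was called neither by edgeR (adjusted p = 0.159) nor by DESeq2 (0.0616). In CPM, the log2 ratio of Hspd1 to Hspe1 was 1.50, 2.47 and 0.63 in NCAM-enriched libraries. In bulk skin it was -0.66, -0.07 and -0.27, without overlap. CPM take no account of gene length. Per kilobase of exon, Hspd1 was above Hspe1 in NCAM-enriched libraries 1 and 2 (30.2 against 19.1 and 45.3 against 14.7). It was below Hspe1 in NCAM-enriched library 3 (24.8 against 28.7) and in every bulk skin library.

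The Hspd1 value depended on how its copies were counted. Hspd1-ps3, a processed pseudogene that shares 1016 of its 2374 windows, held 56, 66 and 1 counts in NCAM-enriched libraries and 0 in each bulk skin library. With all rows named as Hspd1 copies added the log2 fold change was 1.20 (adjusted p = 0.220). With the sequence-matched copies added instead, a choice made after seeing the data, it was 0.97 (adjusted p = 0.295). Neither was called. With NCAM-enriched libraries 1 and 2 left out the Hspd1 value was 0.04. Without those libraries Hspe1 stood at -0.95, and with rows named as its copies added at -1.19 (adjusted p = 0.195). Exons of both genes overlap by 4.24% of the bases of Hspd1 and 7.6% of those of Hspe1, and since Smart-seq2 keeps no strand, reads from there cannot be divided between them.

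**Figure D3:**
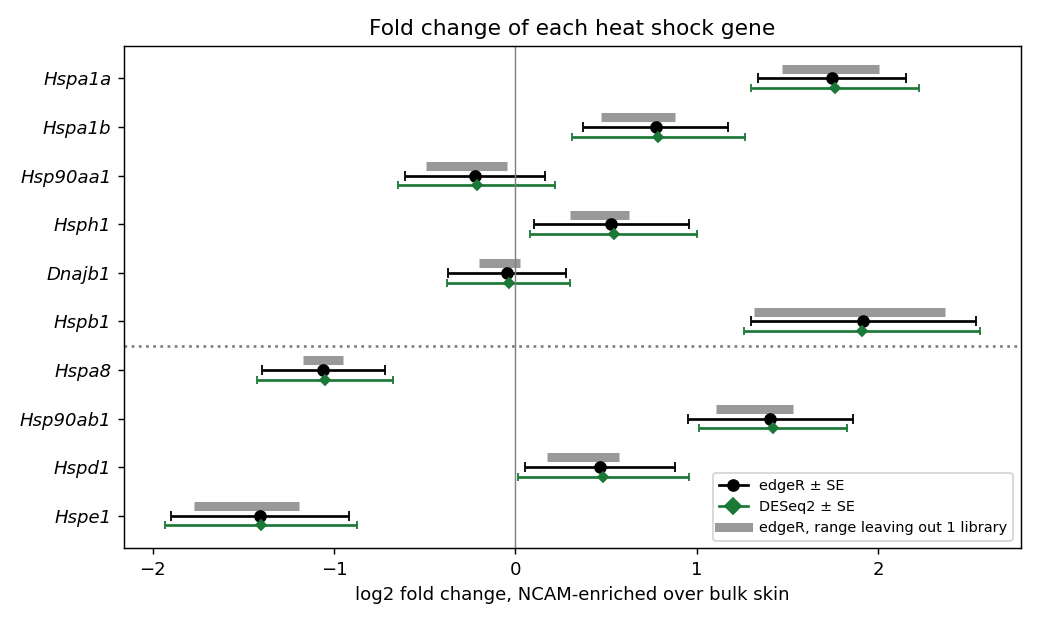
Log2 fold change of each member, NCAM-enriched over bulk skin, from edgeR (black circles, ± SE) and DESeq2 (green diamonds, ± SE), with grey bars for the range of edgeR values when each library is left out in turn. Hspb1, Hspa1a and Hsp90ab1 lie farthest to the right (1.92, 1.75 and 1.41), Hspe1 and Hspa8 farthest to the left (-1.41 and -1.06), and Dnajb1 lies at -0.05.

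The comparison of inducible with constitutive members depended on how they were combined. When each gene counted equally, the mean log2 CPM of the 6 inducible members minus that of the 4 constitutive members was 0.08, 0.07 and 0.49 in NCAM-enriched libraries and -0.95, -0.65 and -0.35 in bulk skin. The NCAM-enriched libraries were all higher, with means of 0.21 ± 0.24 and -0.65 ± 0.30 and a difference of 0.86, which was 0.71 to 1.01 when single libraries were left out. Without Hspd1 and Hspe1 the difference was 0.51. When CPM were summed first, the log2 ratio of inducible to constitutive members was -1.26, -1.64 and -0.60 against -1.10, -1.13 and -0.44. The groups then overlapped and the difference of means was -0.28. Hsp90ab1 alone made up 41.5% to 71.5% of the summed CPM of the 10 members.

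Both classes were more abundant in NCAM-enriched libraries as sums. Inducible members summed to 1513, 1265 and 2110 CPM against 851, 866 and 831, and constitutive members to 3627, 3947 and 3199 against 1825, 1897 and 1124. Without Hsp90ab1, however, the constitutive sum was 212, 219 and 209 CPM against 398, 315 and 313, below bulk skin in every library. Of the 6 inducible members, 4 had fitted values above 0 and 2 below, with a median of 0.65, and of the 4 constitutive members 2 were above and 2 below, with a median of -0.30.

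Levels of different members were compared per kilobase of exon. In bulk skin the order was led by Hsp90ab1 (425 ± 136 CPM per kb), Hspb1 (151 ± 15.96) and Dnajb1 (100.2 ± 12.3), and Hsph1 was last (6.99 ± 1.65). From Hspe1 (55.6 ± 15.7) through Hspa8 (45.6 ± 4.87) and Hspa1b (40.4 ± 12.5) to Hspa1a (38.14 ± 7.82), neighbours did not differ beyond their SD, nor did Hsp90aa1 (24.2) from Hspd1 (24.1). In NCAM-enriched cells Hsp90ab1 (1126 ± 123) was again first, Hspb1 (572 ± 405) was below it in every library but overlapped with Hspa1a, and Hspa1a (128 ± 45.7) came next, level with Dnajb1 (97.1 ± 10.9). Hspa8 (21.9 ± 3.40), Hspe1 (20.8 ± 7.16) and Hsp90aa1 (20.7 ± 5.47) could not be ordered, and Hsph1 was again last (10.1 ± 0.997).

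The order depended on the length used. Per kilobase of windows not shared with any other gene, Hspa8 had rank 3 in bulk skin (333 ± 35.5), close to Hspb1 (366 ± 38.6) and above Dnajb1 (109.5 ± 13.4). By the same length Hspa1b (187 ± 50.6) and Hspa8 (159 ± 24.8) exceeded Dnajb1 (106 ± 11.9) in NCAM-enriched cells. The windows shared with other genes made up 74.8% of Hspa8, 66.3% of Hspa1a, 62.3% of Hspa1b, 58.5% of Hsp90aa1 and 44.8% each of Hspd1 and Hspe1. Gm15459, the pseudogene that shares 1642 of the 2345 windows of Hspa8, had 0 counts in all 6 libraries, and the 10 copies of Hspa8 together had 53, 59 and 9 counts in NCAM-enriched libraries and 14, 15 and 21 in bulk skin. How reads that match several genes were counted is not given in the sources used here.

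**Figure D4:**
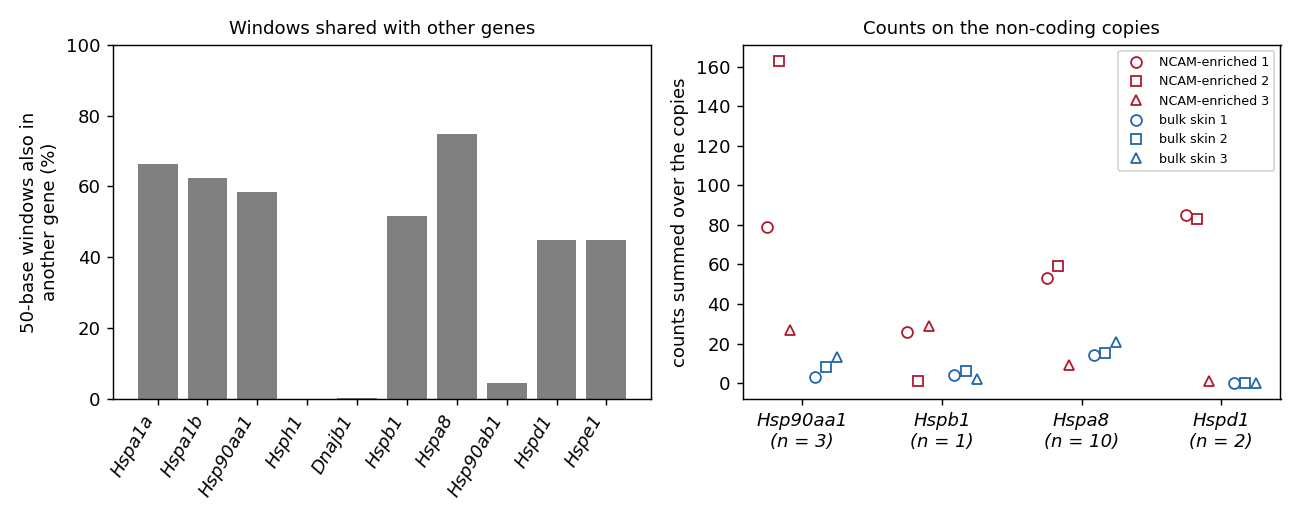
Left, share of the 50-base windows of each member's transcript that also occur in another gene (%). Right, counts summed over the non-coding copies of 4 members (n, number of copies) in each NCAM-enriched (red) and bulk skin (blue) library. The Hsp90aa1 and Hspd1 copies hold 79 to 163 counts in NCAM-enriched libraries 1 and 2, and at most 27 in the other libraries.

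The wider chaperone network had about as many fitted values above 0 as below. It was read from 10 lists, which share some genes, with 108 further genes, of which 100 were tested. edgeR called 0 of them higher and 0 lower, and an unadjusted p under 0.05 was reached by 4 higher and 7 lower genes, against 8.73% and 10.2% of all genes. DESeq2 called 2 higher (Hyou1 and Bag6) and 3 lower (Cryab, Dnajb9 and Vbp1), against 5.06% and 7.1% of all genes. Values did not overlap for 6 higher and 18 lower genes, against 11.1% and 19.3%, so these counts lie near or below the shares over all genes. The median log2 fold change was 0.02, with 51 genes above 0 and 49 below. With 16 immediate early genes added as the other list, 116 of 124 genes were tested, and edgeR called 0 higher and 0 lower.

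Among the relatives of the members, the other HSP70 and HSP110 genes (10 of 11 tested) had a median log2 fold change of -0.18, the other HSP90 genes (2 tested) 0.66 and the other small heat shock genes (3 of 8 tested) -1.87. Hyou1, an HSP110 of the endoplasmic reticulum, had 102, 106 and 55.1 CPM against 25.5, 25.3 and 36.2, without overlap (log2 fold change 1.59 ± 0.48, edgeR adjusted p = 0.111, DESeq2 0.0240). Hspa5, the abundant HSP70 of that compartment (BiP), had 539, 753 and 453 CPM against 704, 827 and 606 (adjusted p = 0.740). Hspa12b, an HSP70 relative of vessel cells, had 0, 0 and 1.99 CPM against 14.9, 6.05 and 4.39 (adjusted p = 0.281). Hsp90b1, the HSP90 of the endoplasmic reticulum, and Trap1, that of mitochondria, had log2 fold changes of 0.64 and 0.68 (adjusted p = 0.496 and 0.436).

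The small heat shock genes went different ways in value. Cryab, the alpha-B crystallin, had 93.0, 57.2 and 38.6 CPM in NCAM-enriched libraries against 318, 177 and 195, without overlap (log2 fold change -1.87 ± 0.46, edgeR adjusted p = 0.0670, DESeq2 0.00635). The value of Cryab thus lay on the other side of 0 from Hspb1, and the antisense gene Hspb2 overlaps part of its exons. Hspb8, which acts with Bag3 in clearing misfolded proteins, had 309, 47.9 and 260 CPM against 84.8, 95.3 and 75.7, low in the same library as Hspb1 (log2 fold change 1.27, adjusted p = 0.304). Hspb6 had 0, 0 and 21.3 CPM against 40.4, 47.6 and 41.1, without overlap (edgeR adjusted p = 0.422, DESeq2 0.301, limma-voom 0.034).

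The partners that drive the HSP70 and HSP90 cycles had medians near 0. The 19 other J proteins had a median log2 fold change of 0.13 and the 23 co-chaperones one of -0.04. Dnajb9, a J protein induced in the endoplasmic reticulum, had 27.6, 8.50 and 19.9 CPM against 68.0, 74.2 and 132 (log2 fold change -2.28 ± 0.59, edgeR adjusted p = 0.0752, DESeq2 0.00474). Bag6, which guards newly made membrane proteins, had 176, 181 and 149 CPM against 59.6, 85.4 and 66.1 (log2 fold change 1.26 ± 0.35, edgeR adjusted p = 0.0890, DESeq2 0.0166). Both were without overlap. Dnajb2 had 138, 37.1 and 131 CPM against 25.5, 49.3 and 24.7 (adjusted p = 0.183). Cacybp stood at a log2 fold change of -1.25 (adjusted p = 0.174), Dnajc5 at 0.45 (0.534) and Fkbp4, an HSP90 co-chaperone of steroid receptors, at 0.33 (0.637).

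The cytosolic chaperonin TRiC and prefoldin, which fold actin and tubulin, had a median of -0.20 over 14 genes. Vbp1, a prefoldin subunit, had 41.5, 43.3 and 45.7 CPM against 147, 93.0 and 119 (log2 fold change -1.46 ± 0.39, edgeR adjusted p = 0.0817, DESeq2 0.0116). Its NCAM-enriched values lay close together and below every bulk skin value. The TRiC subunits Cct4 and Cct5 had log2 fold changes of -0.98 and 0.51 (adjusted p = 0.183 and 0.554). The endoplasmic reticulum list (19 genes) and the mitochondrial list (12 genes) both had medians of 0.08, and in the latter Hspa9, the mitochondrial HSP70, stood at 0.37 and Grpel1, its exchange factor, at -0.79 (adjusted p = 0.619 and 0.576).

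None of the regulators and other targets of the heat shock response was called by edgeR, DESeq2 or limma-voom apart from Cryab. Hsf1, the main heat shock factor, had 55.3, 132 and 75.2 CPM against 63.0, 53.4 and 43.3, and Hsf2 a log2 fold change of 0.56 (adjusted p = 0.472 and 0.696). Hsbp1, which binds and restrains HSF1, had 273, 129 and 187 CPM against 491, 316 and 401, without overlap (log2 fold change -1.03, adjusted p = 0.200). The other heat-inducible genes (16 of 17 tested) had a median of -0.41, and the ubiquitin gene Ubb among them stood at -0.86 (adjusted p = 0.307).

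Immediate early genes, which respond within minutes to handling and injury, summed to 13840, 13080 and 23020 CPM in NCAM-enriched libraries and 12860, 17700 and 14630 in bulk skin, and the groups overlapped. Over the 16 genes the median log2 fold change was -0.05. Jun had 1090, 1886 and 4001 CPM against 433, 913 and 653, without overlap (log2 fold change 1.80 ± 0.58, edgeR adjusted p = 0.127, DESeq2 0.0173), while Fos, its partner in the AP-1 factor, had 2978, 3559 and 5062 against 3369, 4170 and 3890 (adjusted p = 0.986). Jund stood at 0.84 (adjusted p = 0.203).

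**Figure D5:**
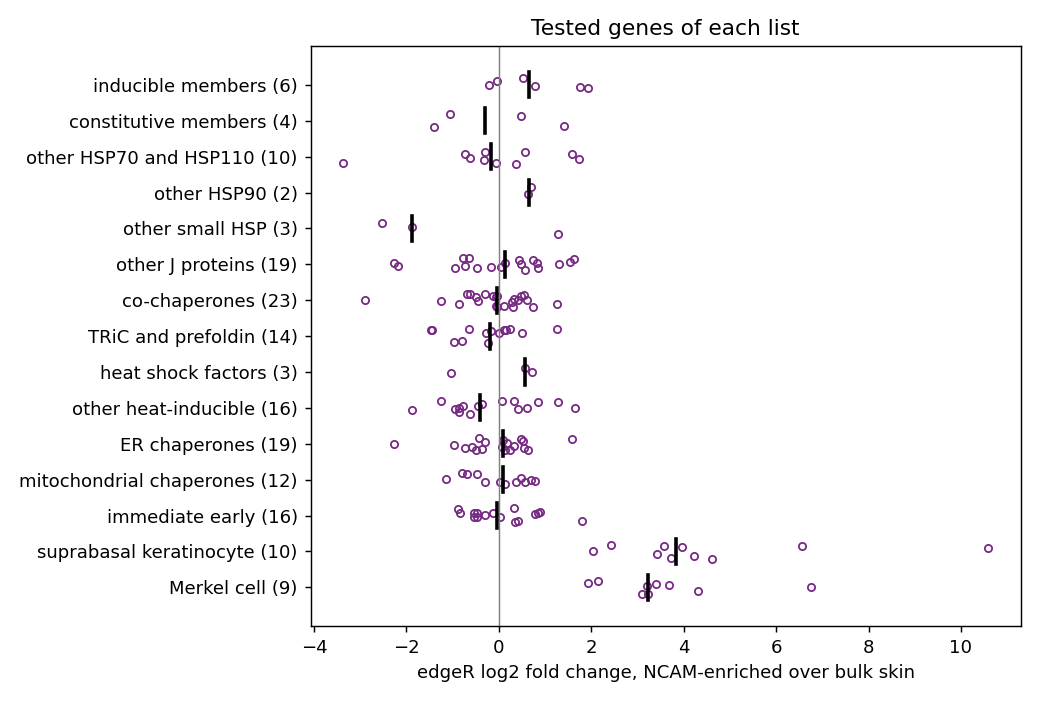
Log2 fold change (NCAM-enriched over bulk skin, edgeR) of each tested gene, with the number of tested genes after each list name and a bar at the list's median. Chaperone and co-chaperone lists with 10 or more genes have medians between -0.41 and 0.13, while the suprabasal keratinocyte and Merkel cell markers have medians of 3.84 and 3.22.

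The non-member genes whose log2 CPM ran most like the mean of the inducible members were Krt17 (Pearson's r = 0.992), a keratin of hair follicle and stressed epidermis, S1pr5 (0.991), a receptor for a lipid signal, and Ewsr1 (0.988), an RNA-binding protein. These are the highest of 4827 protein-coding genes that averaged 50 CPM or more, over 6 libraries that form 2 groups, so a high r describes the shared group difference and depth as well. Krt17 had 6877, 4914 and 17760 CPM in NCAM-enriched libraries against 1106, 980 and 1232.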

How the data were processed

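Per the labels and methods, the authors removed adapter, polyA and abundant sequences, used STAR to align 50-base single-end Smart-seq2 reads to GRCm38 and featureCounts to count them per gene, and the deposited values are these raw read counts without normalization. The annotation release, strand setting and treatment of multi-mapping reads were not given in the sources used here. Of 54532 gene IDs, 54495 were found in GENCODE M21. Reads are PCR copies without molecular identifiers.

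Groups came from the labels. All genes were fitted with edgeR 4.0.16 in R 4.3.3 (TMM factors, filterByExpr by group, quasi-likelihood F-test, Benjamini-Hochberg over 13157 genes), and a call means an adjusted p up to 0.05. Log2 fold changes are NCAM-enriched over bulk skin, and SE is their absolute value over the square root of F. The common biological coefficient of variation was 0.744. Only the edgeR fit with all libraries was run on simulated data, in which both groups shared 1 dispersion per gene. Log2 CPM used a pseudocount of 0.5 CPM. Same-numbered libraries were not treated as pairs (correlation of deviations 0.0223, 0.000169 and -0.0022). Alternatives were DESeq2 1.42.0, limma-voom (limma 3.58.1), RLE and upper-quartile factors, all genes of at least 1 count, the replicate number as a block, robust dispersion, each library left out and copies summed. Chosen after seeing the data were sums over sequence-matched copies, lengths of unshared windows and a fit without NCAM-enriched libraries 1 and 2. Windows of 50 bases came from the longest coding transcript of each gene, and a copy shares at least 50 of them.

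The members and lists were chosen with earlier results of these data known. Named were all members, and from each wider list the 2 genes with the smallest p and the most abundant uncalled gene, or all genes of a list with 5 or fewer tested, and the 3 genes most correlated with the inducible members. Genes named as copies, overlapping genes or markers were chosen after values were seen. Python 3.11.15 with matplotlib 3.10.9 drew the figures.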

Additional observations from a re-analysis of the deposited data

How the results depend on the processing

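Of 160 values (10 members, 16 alternatives each), 144 kept the direction and the side of the threshold, 12 kept the direction and passed it, and 4 changed sign. In the 2 settings that sum copies, Hspa1a and Hspa1b share 1 fit of their sum, entered for both. Some of the 12 come from the fit with NCAM-enriched library 3 alone, which has no replicate in its group. The sign changed for Hsp90aa1 with sequence-matched copies summed (0.52) and without NCAM-enriched libraries 1 and 2 (0.10). It also changed for Dnajb1 without NCAM-enriched library 2 (-0.198 to 0.0282 over single libraries left out) and without libraries 1 and 2 (0.00117). Both genes were uncalled throughout. Members called higher numbered 0 by edgeR, 3 by DESeq2, 2 by limma-voom, 2 with all genes of at least 1 count, 2 without NCAM-enriched libraries 1 and 2 (Hspa1a and Hspb1) and 0 to 2 when single libraries were left out, the 2 being the same genes without NCAM-enriched library 2. Members called lower numbered 0 by edgeR, 1 by DESeq2 and 0 to 0 when single libraries were left out. With the replicate number as a block, 0 members were called higher and 0 lower, Hspa1a having a log2 fold change of 1.70 (adjusted p = 0.104), and over all genes the calls went from 137 higher and 204 lower to 50 and 92. Over all genes without single NCAM-enriched libraries the calls ran from 60 to 1099 higher and 223 to 733 lower, without single bulk skin libraries from 0 to 1 and 13 to 21. Leaving out NCAM-enriched library 2 gave 444 higher and 592 lower of 14384 genes. By limma-voom, 351 were higher and 849 lower of 13157. The fit that kept every gene counted at least once called 769 and 741 of 27884. These settings called more genes in general than the main edgeR fit, not only members or listed genes. With libraries 1 and 2 left out, 1 NCAM-enriched library remains, so passing the threshold in that fit carries no weight. Such passes are still counted among the 16 alternatives above. Genes of the 11 wider lists (chaperone and immediate early) called higher were 0 by edgeR, 3 by DESeq2, 1 by limma-voom, 6 without NCAM-enriched libraries 1 and 2 and 0 to 2 without single libraries, and those called lower 0, 3, 3, 6 and 0 to 4. The excess of inducible over constitutive members, 0.86, was -0.28 with summed CPM, where Hsp90ab1 dominates, 0.51 without Hspd1 and Hspe1, 1.14 without NCAM-enriched libraries 1 and 2 and 0.71 to 1.01 without single libraries. Other causes were not tested. The median log2 fold change over all genes tested, -0.07, was -0.37 with limma-voom, -0.36 with the block and -0.29 without NCAM-enriched libraries 1 and 2. The depth was enough to count every member in every library, the lowest count being 28 (Hspe1).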
